A study of Mus musculus with 24 samples.

Results

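The genes described here belong to the large families of drug- and steroid-metabolising enzymes of the mouse liver: cytochromes P450 of the Cyp2c, Cyp2d, Cyp2f, Cyp2j, Cyp2r, Cyp2u, Cyp3a, Cyp4f and Cyp4v families, and the glutathione S-transferases (Gst), sulfotransferases (Sult) and UDP-glucuronosyltransferases (Ugt). Members were taken by gene symbol, with Cyp3a11, Gstm1 and Gstm3 left out, and had to reach at least 1 on the counts-per-million (CPM) scale, relative to the library total, in at least 6 libraries. Of 110 matching symbols in a table of 23240 rows, 95 reached that level and 15 did not. Just below the limit, Sult2a7 reached 1 CPM in 3 libraries and Gsto2 in 1 library. Among the others left out, Sult1e1, the estrogen sulfotransferase, lay between 0 and 0.178 CPM, and Sult1c1 was at 0 in all 24 libraries.

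The livers came from female mice of the NSG strain, which is immunodeficient and lacks mature T, B and NK cells, with an age of 8 weeks per the labels. The mice of all groups were injected into a tail vein 2 times a week over 5 weeks and their livers collected 2 days after the final dose. The PBS group received phosphate-buffered saline, and the 3 other groups received about 10 µg per injection of extracellular vesicles (EVs, membrane particles that cells release) from cultured human cells. MCF10A EV came from MCF10A, a non-tumorigenic breast epithelial line, MCF10A/miR-122 EV from the line the labels call MCF10A/miR-122 (named for a liver-rich microRNA), and MDA-MB-231 EV from a breast cancer line. Each group held 6 libraries. The labels do not say that each came from its own mouse, and p-values measure only the spread between these libraries. The human cells are each 1 established line, so that the line and its vesicles are not replicated.

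In phase I, cytochromes P450 in the endoplasmic reticulum add an oxygen atom to drugs, steroids, bile acids and fatty acids, with electrons passed on by cytochrome P450 reductase. In phase II, transferases attach glutathione, sulfate or glucuronic acid, which makes the product more soluble and easier to excrete in bile or urine. In mouse liver many of these genes lie in tandem clusters of close copies, respond to nuclear receptors such as PXR and CAR, and differ between the sexes through the pattern of growth hormone release.

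The libraries held between 21.3 and 33.7 M (mega) counts, and the 95 members together took 3.35% to 4.42% of them. The 12 PBS and MCF10A EV libraries stood apart from the 12 libraries of the other groups: on the first principal component, which held 23.0% of the variance, they lay between -27.1 and -8.10 against 8.89 to 30.8, and their totals were 25.9 ± 2.53 against 30.9 ± 1.95 M counts (SD, n = 12 libraries). No group had libraries on both sides, so in the 4 comparisons between these sets, set and treatment cannot be told apart. In addition, the names of the 12 libraries of the last groups contradict their treatment labels: each of these groups carries names that belong to the treatment of the other. Groups are called by their treatment label throughout, and a result that turns with the names is given as such.

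Hepatocyte markers dominated every library. The 10 hepatocyte markers summed to 109429 to 137281 CPM in PBS, 113540 to 137173 in MCF10A EV, 131325 to 145433 in MCF10A/miR-122 EV and 127901 to 136159 in MDA-MB-231 EV. Of the 10, 4 were higher in MCF10A/miR-122 EV and 3 in MDA-MB-231 EV than in PBS (40% and 30%, beside 17.9% and 11.7% of all genes called). Among 11 markers of Kupffer cells and macrophages, 7 were higher in MCF10A/miR-122 EV than in PBS and 9 than in MCF10A EV, and 3 were lower in MDA-MB-231 EV than in MCF10A/miR-122 EV. These are 63.6%, 81.8% and 27.3%, beside 17.9%, 16.2% and 0.254% of all genes. The sum of the 11 ran from 315 to 408 CPM in PBS, 287 to 339 in MCF10A EV, 306 to 727 in MCF10A/miR-122 EV and 236 to 379 in MDA-MB-231 EV. The part of these cells in the results below was not tested, and in whole liver fewer cells of a type and less RNA per cell cannot be told apart. The 5 adipocyte markers summed to at most 0.162 CPM, with Lep at 0, and the 9 lymphocyte markers to at most 2.28 CPM, with Ncr1 at 0. Erythroid markers summed to 477 to 2689 CPM. Their medians were 873 in PBS, 832 in MCF10A EV, 1189 in MCF10A/miR-122 EV and 585 in MDA-MB-231 EV. Stellate cell markers summed to 177 to 391 CPM, sinusoidal endothelial to 140 to 345 and pancreatic acinar to 207 to 299. Kidney and intestine markers summed to 66.4 to 126 CPM, cholangiocyte to 30.1 to 69.2 and neutrophil to 0.320 to 5.49.

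Many members are so alike that reads cannot be assigned to 1 copy with certainty. In the mouse transcripts of GENCODE M21 (build GRCm38, whereas the counts were made on mm9), 57 of the 95 members shared 10% or more of their 32-base words with another gene, and 94 members were matched. The Ugt1a gene on chromosome 1 is the extreme case: each of its 8 rows is a first exon joined to the same last exons. The stretches below, taken from those transcripts, show the part in which the rows differ: 57 of the first 60 coding bases are not the same in all 8 (capitals).
Ugt1a1, first 60 coding bases: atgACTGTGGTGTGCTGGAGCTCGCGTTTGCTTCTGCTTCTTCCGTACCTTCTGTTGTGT
Ugt1a6a, first 60 coding bases: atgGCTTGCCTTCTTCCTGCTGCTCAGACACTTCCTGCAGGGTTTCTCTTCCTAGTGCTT
Ugt1a9, first 60 coding bases: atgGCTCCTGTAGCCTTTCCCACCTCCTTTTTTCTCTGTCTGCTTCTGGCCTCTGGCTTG
Other families differ at few positions, as the first 60 coding bases of 3 female-biased Cyp3a genes on chromosome 5 show (capitals: the 3 positions that differ, with Cyp3a41b as Cyp3a41a), and those of Gsta1 and Gsta2 on chromosome 9 do not differ at all.
Cyp3a16: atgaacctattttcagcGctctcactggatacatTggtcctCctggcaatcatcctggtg
Cyp3a41a: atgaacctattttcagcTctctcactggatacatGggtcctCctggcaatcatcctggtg
Cyp3a44: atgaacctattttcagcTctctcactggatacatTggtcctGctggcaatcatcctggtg
Gsta1 and Gsta2: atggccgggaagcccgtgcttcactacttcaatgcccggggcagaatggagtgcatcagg

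The counts show the same. Within any library the highest of the 8 Ugt1a rows exceeded the lowest by at most 23.7%, and Ugt1a6a and Ugt1a6b by at most 0.213%. Cyp2c65 and Cyp2c66 had identical counts in 19 of 24 libraries and Ugt2a1 and Ugt2a2 in 11, with differences of at most 1 and 3 counts. Cyp3a41a had 1.95 to 2.04 times the counts of Cyp3a41b in every library. When rows that share at least 50% of their words are taken as 1, the 95 members form 80 units: 22 rows fall into 7 sets, namely the Ugt1a rows, Cyp2c40 with Cyp2c67, Cyp2c68 and Cyp2c69, and the pairs Cyp3a41a and Cyp3a41b, Gsta1 and Gsta2, Gstp1 and Gstp2, Sult2a1 and Sult2a2, and Ugt2a1 and Ugt2a2. Values of single rows in these sets are uncertain. Cyp2c65 and Cyp2c66, which share 31.7% to 32.5% of their words, are in none of these sets and are as uncertain by their counts.

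Per kilobase of the longest transcript, the highest members over all libraries were Cyp3a41a at 1320 CPM per kb, Cyp3a41b at 663, Cyp2c29 at 624, Sult3a1 at 623, Cyp2d26 at 583, Cyp2c40 at 580 and Cyp2f2 at 551. Cyp3a41, Cyp2c40 and Sult3a1 are known as female-biased liver genes, and the mice were female. Families also differed in how much libraries of 1 group varied. The within-group coefficient of variation had a median of 14.6% over the members and 14.2% over all 13773 genes tested. It was 6.64% for Ugt1 and 9.91% for Ugt2, and it was 42.0% for the Sult2 family, with all 6 Sult2a genes between 39.6% and 43.3%.

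**Figure D1:**
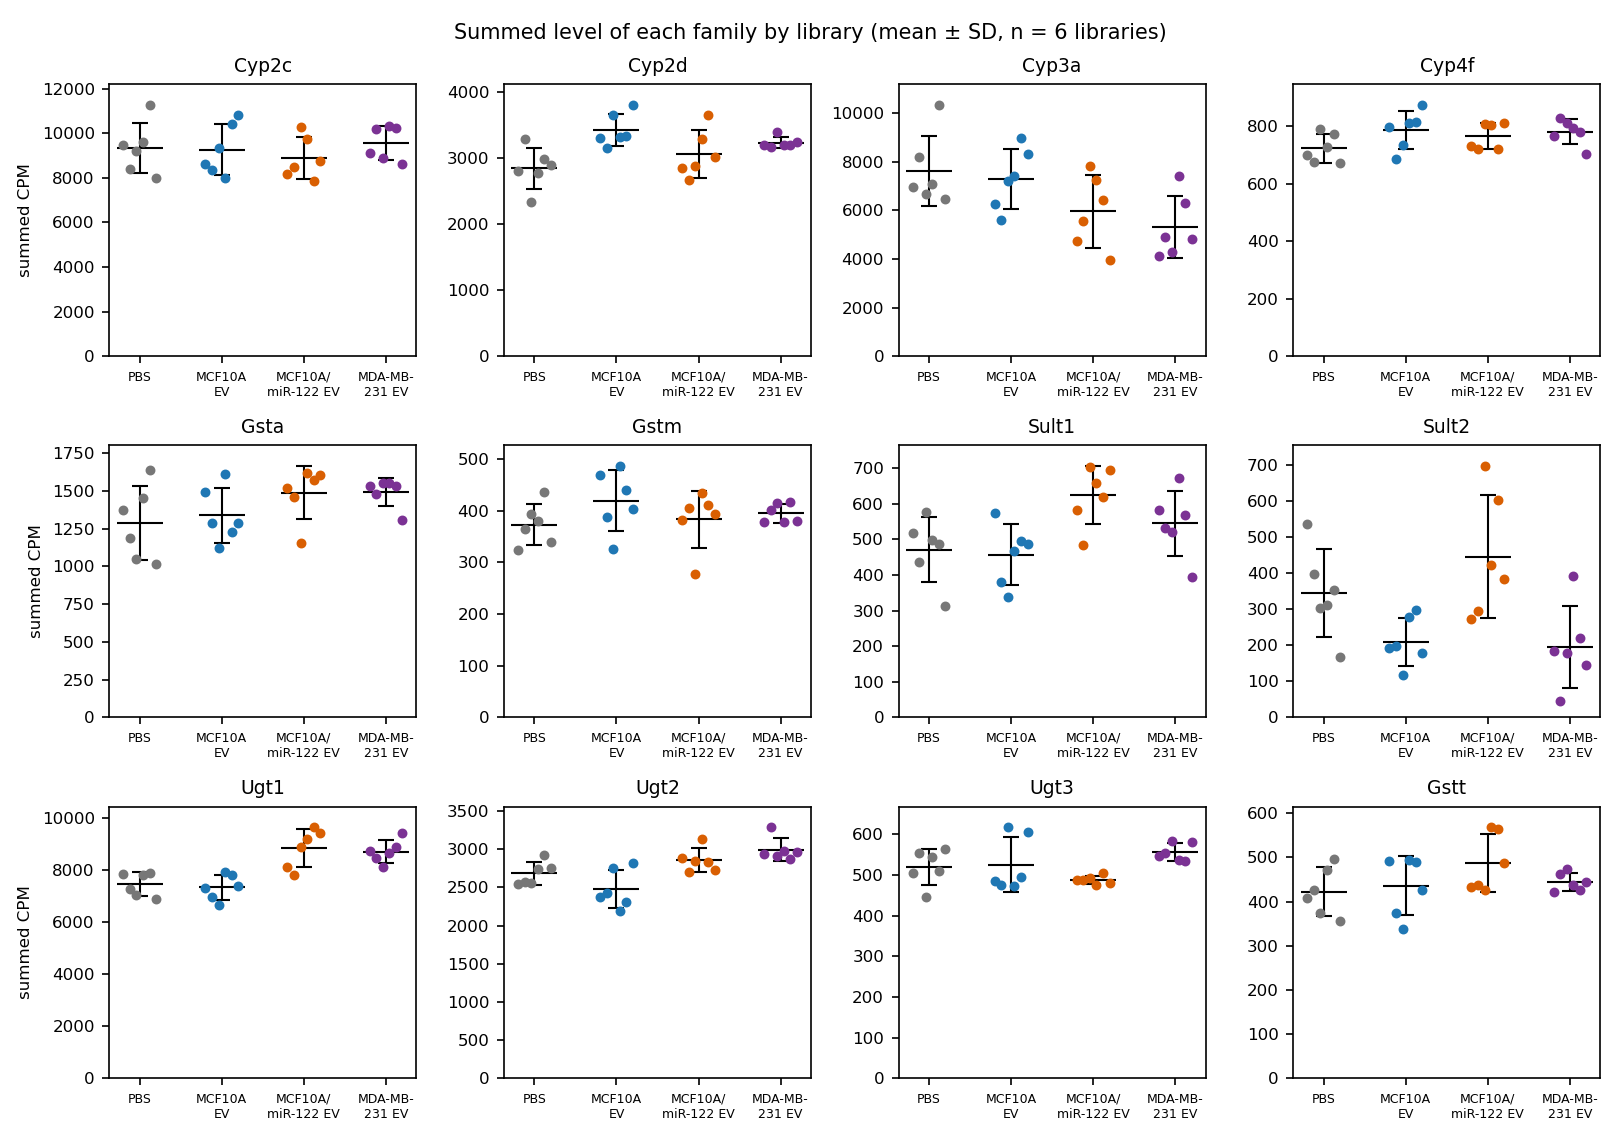
Summed CPM of 12 families in each of the 24 libraries (points), with the mean and SD of each group of 6. The Cyp2c sums overlap between all groups, the Ugt1 sums of the last 2 groups start at 7827 CPM against at most 7939 in the first 2, and the Sult2 sums run from 44.8 to 696 CPM.

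As sums, families differed in how far groups lay apart. The 16 Cyp2c genes summed to 9325 ± 1132 CPM in PBS, 9253 ± 1148 in MCF10A EV, 8889 ± 937 in MCF10A/miR-122 EV and 9563 ± 771 in MDA-MB-231 EV (mean ± SD, n = 6 as for all group values here). The 8 Ugt1a rows summed to 7467 ± 447, 7345 ± 488, 8852 ± 738 and 8717 ± 433 CPM in the same order, which counts shared reads more than once, and every MDA-MB-231 EV sum (lowest 8137) lay above every PBS sum (highest 7884). The 8 Cyp3a genes summed to 7618 ± 1451, 7294 ± 1250, 5960 ± 1489 and 5311 ± 1278 CPM. The Sult2 sums were 344 ± 121.97, 210 ± 66.6, 446 ± 170 and 194 ± 114 CPM. No test was made on sums, since the members were chosen together.

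Each member was tested with edgeR's quasi-likelihood test, adjusted by the Benjamini-Hochberg method over all 13773 genes, and a member is called at an adjusted p under 0.05. No member was called between MCF10A EV and PBS, where 1.07% of all genes were (0.37% higher and 0.697% lower). Between MDA-MB-231 EV and MCF10A/miR-122 EV none was called either, where 0.254% of all genes were (0.0436% higher and 0.211% lower). These are the comparisons within a set of libraries. At an unadjusted p under 0.05 there were 24 members (25.3%, beside 17.3% of all genes) and 18 (18.9%, beside 8.19%). For MCF10A EV against PBS DESeq2 called 5 members (5.26%, beside 3.01% of all genes) and limma-voom 0, and for MDA-MB-231 EV against MCF10A/miR-122 EV both tools called 0.

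Calls were made in the 4 comparisons between the sets. Against PBS, 23 members (24.2%) were called in MCF10A/miR-122 EV, where 17.9% of all genes were, and 24 (25.3%) in MDA-MB-231 EV, where 11.7% of all genes were. Of these, 14 were higher (8.35% of all genes were) and 9 lower (9.53%) in MCF10A/miR-122 EV, and 15 were higher (5.33%) and 9 lower (6.34%) in MDA-MB-231 EV. Against MCF10A EV, 28 members (29.5%) were called in MCF10A/miR-122 EV, 18 higher and 10 lower, where 16.2% of all genes were (7.53% higher and 8.71% lower). In MDA-MB-231 EV 27 (28.4%) were called, 15 higher and 12 lower, where 7.68% of all genes were (3.24% higher and 4.44% lower). The 8 Ugt1a rows are called in each of the 4, and without them the counts were 15 of 87 (17.2%), 16 (18.4%), 20 (23.0%) and 19 (21.8%) in the same order, so for MCF10A/miR-122 EV against PBS the members' share is near that of all genes. The balance of directions in MDA-MB-231 EV changed without single libraries. Against MCF10A EV, the 15 higher calls became 4 without MCF10A EV replicate 1, 6 without MCF10A EV replicate 2 or MDA-MB-231 EV replicate 5, 7 without MDA-MB-231 EV replicate 6 and 9 without MCF10A EV replicate 3 or 4, while the lower calls stayed between 9 and 12 without any 1 library. Against PBS, the 15 higher and 9 lower calls became 5 and 10 without PBS replicate 3, 6 and 9 without PBS replicate 6, 7 and 8 without MDA-MB-231 EV replicate 6, 8 and 8 without its replicate 5 and 10 and 14 without its replicate 4. The comparisons share their reference samples, and are not independent. The median log2 fold change of the members was largest for MCF10A/miR-122 EV against PBS, at 0.071, beside 0.00104 for all genes.

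Of the 95 members, 54 were called in no comparison and 41 (43.2%) in at least 1, beside 28.3% of all genes, and none was called in both directions. In all 4 comparisons between the sets 15 were called (15.8%, beside 3.15% of all genes), 8 of them the Ugt1a rows: 10 were higher, the Ugt1a rows with Ugt2b36 and Cyp2j9, and 5 were lower, Cyp4f40, Cyp4f16, Cyp2d34, Ugt2a1 and Ugt2a2. Both the 41 and the 15 count the near-identical Ugt1a rows as 8, which raises both shares. Without the Ugt1a rows, 7 of 87 members were called in all 4, among them the near-identical Ugt2a1 and Ugt2a2.

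**Figure D2:**
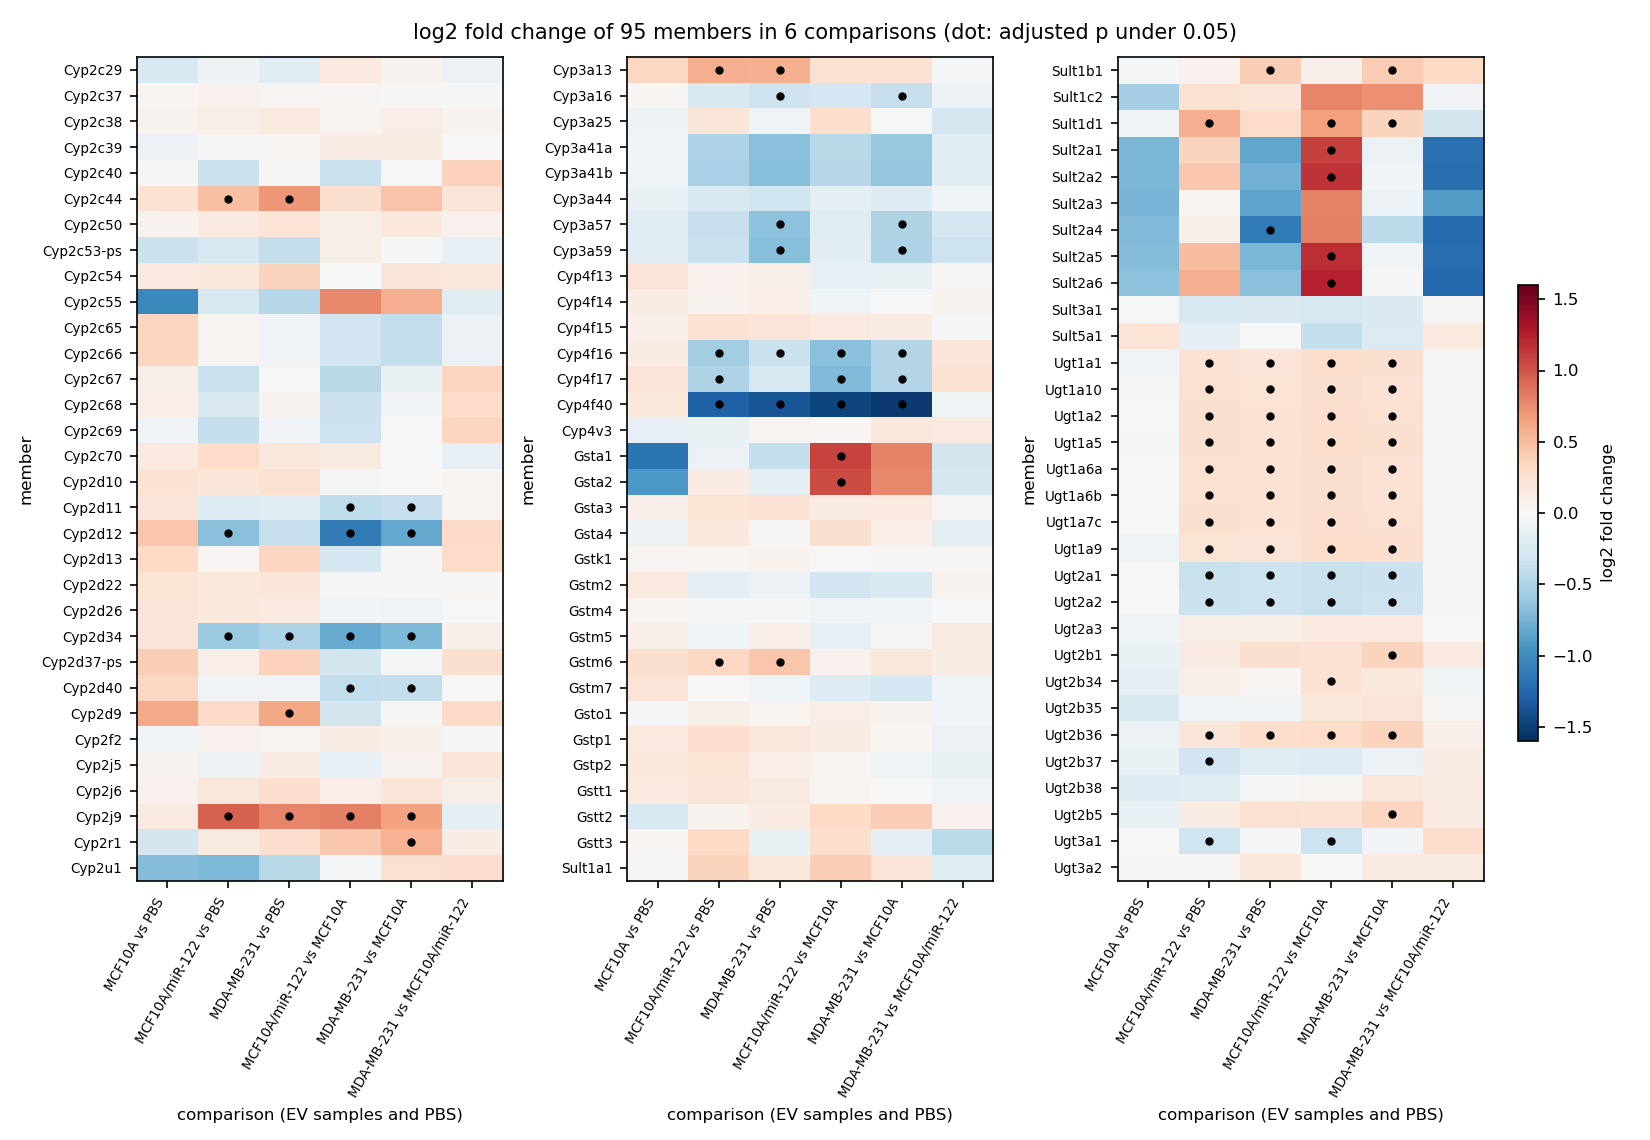
log2 fold change of the 95 members (lines, by family) in the 6 comparisons (columns, first group over second), from blue for lower to red for higher, with a dot where the adjusted p was under 0.05. The first and last columns, which compare groups within a set of libraries, carry no dot, and the 8 Ugt1a rows carry a dot in each of the other 4.

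Among the phase I genes, the Cyp2c family, which oxidises drugs, steroids and arachidonic acid, was seldom called: 15 of its 16 members were called nowhere. Beside this, 28.3% of all genes were called at least once. The median within-group coefficient of variation was 20.4% for Cyp2c and 14.2% for all genes tested, so few calls do not show that its levels were stable. Cyp2c29, a Cyp2c gene that the receptor CAR is known to induce, stood at 1916 ± 583 CPM in PBS, 1623 ± 153 in MCF10A EV, 1806 ± 267 in MCF10A/miR-122 EV and 1695 ± 218 in MDA-MB-231 EV. The exception was Cyp2c44, an arachidonic acid epoxygenase, at 26.4 ± 6.13, 30.9 ± 6.47, 36.9 ± 9.29 and 42.6 ± 6.38 CPM. Its PBS libraries lay between 21.5 and 38.0 CPM with a median of 25.1, and its MDA-MB-231 EV libraries between 31.99 and 50.8 with a median of 42.6, so that the groups overlapped through PBS replicate 3. It was higher than in PBS in MDA-MB-231 EV (log2 fold change 0.69 ± 0.17 SE, adjusted p = 0.00792, 6 of 6 libraries above the PBS median) and in MCF10A/miR-122 EV (0.48 ± 0.17, adjusted p = 0.0441). The latter call was lost without PBS replicate 1, 2, 4, 5 or 6 or MCF10A/miR-122 EV replicate 4, 5 or 6 (0.39 to 0.49, adjusted p up to 0.121). It was also lost without a filter (adjusted p = 0.0503) and in the fit of only the compared groups (0.0823).

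The Cyp2d genes, which metabolise drugs with a basic nitrogen and some steroids, divided within their cluster on chromosome 15. Cyp2d12 had the widest difference: PBS libraries lay between 36.2 and 65.9 CPM with a median of 55.5, MCF10A EV between 66.5 and 85.9 (73.1), MCF10A/miR-122 EV between 25.2 and 41.7 (35.5) and MDA-MB-231 EV between 36.8 and 48.4 (41.8). Every MCF10A EV library thus lay above every library of the other 3 groups. The log2 fold change of MCF10A/miR-122 EV was -1.12 ± 0.13 against MCF10A EV (adjusted p = 1.31e-06) and against PBS -0.67 ± 0.13 (adjusted p = 0.000768), and that of MDA-MB-231 EV against MCF10A EV -0.82 ± 0.13 (adjusted p = 0.000166). Between MDA-MB-231 EV and PBS it differed by -0.37 ± 0.13 and was not called (adjusted p = 0.055), and between MCF10A EV and PBS by 0.45 ± 0.13 (adjusted p = 0.0766). The former is also the value that the library names would give to MCF10A/miR-122 EV against PBS.

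Cyp2d34, the next gene in the cluster, stood at 71.2 ± 10.0 CPM in PBS, 82.3 ± 9.06 in MCF10A EV, 47.2 ± 6.36 in MCF10A/miR-122 EV and 50.1 ± 3.11 in MDA-MB-231 EV. The lowest PBS library, at 58.7 CPM, lay above the highest library of the last 2 groups, at 57.9, and the 4 log2 fold changes between the sets ran from -0.51 ± 0.09 to -0.80 ± 0.09 (adjusted p from 2.41e-06 to 0.00116). Cyp2d11 and Cyp2d40 were lower than in MCF10A EV only, by -0.41 and -0.39 in MCF10A/miR-122 EV and by -0.36 and -0.38 in MDA-MB-231 EV, and against PBS they were not called. Cyp2d11 shares 33.2% to 37.5% of its words with Cyp2d10 (each as a share of 1 of the 2), which was called nowhere at 670 ± 101, 785 ± 75.5, 768 ± 90.3 and 790 ± 36.7 CPM. Cyp2d26, the family's highest per kilobase, was not called at 903 ± 98.1, 1046 ± 70.7, 1011 ± 86.7 and 1003 ± 60.1 CPM.

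All 10 Cyp2d genes had higher values in MCF10A EV than in PBS, with log2 fold changes from 0.20 to 0.60, and none passed. The smallest adjusted p was that of Cyp2d40 (0.33 ± 0.08, adjusted p = 0.0563, 6 of 6 libraries above the PBS median), which was called without PBS replicate 5 (0.39, adjusted p = 0.00766). With DESeq2 Cyp2d40, Cyp2d12 and Cyp2d9 were called higher in this comparison, and Gsta1 and Cyp2c55 lower.

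Of the remaining Cyp2 genes, Cyp2j9 and Cyp2r1 were called. Cyp2j9, an epoxygenase better known in brain, ranged from 5.75 to 11.1 CPM in PBS (median 9.42), from 7.15 to 13.4 in MCF10A EV (8.67), from 11.6 to 26.9 in MCF10A/miR-122 EV (15.3) and from 11.9 to 18.9 in MDA-MB-231 EV (15.3). All libraries of the last 2 groups lay above all PBS libraries, while both groups overlapped with MCF10A EV. Its log2 fold changes in MCF10A/miR-122 EV were 0.94 ± 0.20 against PBS (adjusted p = 0.00229) and 0.80 ± 0.20 against MCF10A EV (adjusted p = 0.00768). In MDA-MB-231 EV they were 0.78 ± 0.20 (adjusted p = 0.0129) and 0.64 ± 0.20 (adjusted p = 0.0489). The last of these was lost without MCF10A EV replicate 1, 2, 4 or 5 or MDA-MB-231 EV replicate 2, 3, 5 or 6 (0.57 to 0.68, adjusted p up to 0.114), and without a filter (adjusted p = 0.0517). Its neighbour Cyp2j5, the main hepatic gene of the family, was not called at 683 ± 36.4, 711 ± 59.7, 647 ± 65.0 and 740 ± 75.8 CPM.

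Cyp2r1, a vitamin D 25-hydroxylase, was higher in MDA-MB-231 EV (8.15 ± 1.49 CPM) than in MCF10A EV (5.56 ± 0.853), by 0.55 ± 0.16 (adjusted p = 0.0334). This call was lost without MCF10A EV replicate 3, 4 or 5 or MDA-MB-231 EV replicate 1, 2, 3 or 5 (0.49 to 0.56, adjusted p up to 0.0805) and with the library names as identities (0.43, adjusted p = 0.0642). Cyp2f2, which bioactivates naphthalene, and Cyp2u1 were called nowhere.

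The Cyp3a family, the main drug-oxidising P450s of the liver, split by gene. The promoter of Cyp3a13 lies at chr5:137921570-137921869 (GRCm38.p6), apart from those of the other Cyp3a members, which start at 145345019 (Cyp3a57) or beyond. Cyp3a13 was higher than in PBS in both last groups. Its PBS libraries lay between 26.7 and 36.7 CPM (median 32.1), those of MCF10A EV between 33.4 and 44.7 (42.9), of MCF10A/miR-122 EV between 34.8 and 63.0 (47.1) and of MDA-MB-231 EV between 38.9 and 55.8 (47.7). MCF10A EV overlapped with all 3 other groups, and MDA-MB-231 EV did not overlap with PBS. The log2 fold changes against PBS were 0.58 ± 0.12 (MCF10A/miR-122 EV, adjusted p = 0.00205) and 0.57 ± 0.12 (MDA-MB-231 EV, adjusted p = 0.0037).

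Cyp3a57, Cyp3a59 and Cyp3a16 were lower in MDA-MB-231 EV. Cyp3a59 lay between 239 and 293 CPM in PBS (median 257), 144 and 314 in MCF10A EV (214), 164 and 248 in MCF10A/miR-122 EV (208) and 153 and 174 in MDA-MB-231 EV (165). The PBS and MDA-MB-231 EV libraries were apart, and the MCF10A EV libraries were the most spread. The log2 fold change of MDA-MB-231 EV was -0.68 ± 0.13 against PBS (adjusted p = 0.00128) and -0.50 ± 0.13 against MCF10A EV (adjusted p = 0.0181). Cyp3a59 shares 42.4% of its words with Cyp3a25, which was called nowhere at 726 ± 65.3, 685 ± 162, 833 ± 165 and 689.6 ± 54.3 CPM. Cyp3a57, which shares 16.7% of its words with Cyp3a59, differed by -0.66 ± 0.13 and -0.48 ± 0.13 (adjusted p = 0.00226 and 0.0258), and Cyp3a16 by -0.34 ± 0.11 and -0.37 ± 0.11 (adjusted p = 0.0478 and 0.0404). In MCF10A/miR-122 EV against PBS the same genes were at -0.37 (Cyp3a57), -0.35 (Cyp3a59) and -0.24 (Cyp3a16), not called.

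Against MCF10A EV, the Cyp3a59 call was lost without MCF10A EV replicate 4 (-0.39, adjusted p = 0.0606), and that of Cyp3a57 without MCF10A EV replicate 3 or 4 or MDA-MB-231 EV replicate 4 or 5 (-0.46 to -0.36, adjusted p up to 0.0714). Those of Cyp3a16 were lost without 7 of the 12 libraries against PBS (PBS replicates 1, 2 and 5 and MDA-MB-231 EV replicates 1, 3, 4 and 5, -0.36 to -0.27) and without 8 against MCF10A EV (MCF10A EV replicates 1, 3, 4 and 5 and MDA-MB-231 EV replicates 1, 3, 4 and 5, -0.37 to -0.33). With the library names as identities all 6 calls were lost: against PBS the values were -0.37 (Cyp3a57, adjusted p = 0.0510), -0.35 (Cyp3a59, 0.0558) and -0.24 (Cyp3a16, 0.140), and against MCF10A EV -0.20 (0.327), -0.17 (0.398) and -0.27 (0.0980). The Cyp3a57 call against MCF10A EV was also lost in the fit of only the compared groups (adjusted p = 0.0721) and with limma-voom (0.0501). Cyp3a41a, the highest member, showed 3299 ± 803 CPM in PBS, 3163 ± 815 in MCF10A EV, 2335 ± 811 in MCF10A/miR-122 EV and 2077 ± 858 in MDA-MB-231 EV. Its libraries ran from 1322 to 4808 CPM, and at this spread the log2 fold change of -0.67 ± 0.24 between MDA-MB-231 EV and PBS was not called (adjusted p = 0.074).

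In the Cyp4f family, omega-hydroxylases of leukotrienes, fatty acids and vitamin E side chains, 3 genes were called and 3 were not. Beside this, 28.3% of all genes were called at least once. In order along chromosome 17 the called genes, Cyp4f17, Cyp4f16 and Cyp4f40, come first and Cyp4f15, Cyp4f14 and Cyp4f13 follow (RefSeq order, GRCm38.p6). Cyp4f40 had the largest fall of any member: 3.48 to 5.36 CPM in PBS (median 4.21), 3.75 to 5.93 in MCF10A EV (4.77), 1.20 to 1.99 in MCF10A/miR-122 EV (1.86) and 1.27 to 2.22 in MDA-MB-231 EV (1.57). The 12 libraries of the last groups all lay below the 12 others. It was 2.46-fold lower than in PBS in MCF10A/miR-122 EV (-1.30 ± 0.16, adjusted p = 4.09e-06) and 2.58-fold lower in MDA-MB-231 EV (-1.37 ± 0.16, adjusted p = 2.45e-06), and against MCF10A EV 2.76-fold (-1.47 ± 0.16, adjusted p = 4.81e-07) and 2.90-fold lower (-1.54 ± 0.16, adjusted p = 3.25e-07). Within the sets it was not called, at 0.17 ± 0.15 between MCF10A EV and PBS and -0.07 ± 0.16 between MDA-MB-231 EV and the other group of its set.

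Cyp4f16 showed the same order of sets at 19.3 ± 2.11 CPM in PBS, 20.98 ± 1.98 in MCF10A EV, 13.2 ± 1.13 in MCF10A/miR-122 EV and 15.2 ± 0.284 in MDA-MB-231 EV, again with no overlap between the sets. Its log2 fold changes were -0.55 ± 0.08 and -0.34 ± 0.08 against PBS (adjusted p = 2.38e-05 and 0.00407) and -0.67 ± 0.08 and -0.46 ± 0.08 against MCF10A EV (adjusted p = 1.06e-06 and 0.000306), MCF10A/miR-122 EV first. Cyp4f17 stood at 20.98 ± 2.16, 24.2 ± 3.28, 14.8 ± 2.12 and 17.6 ± 2.24 CPM and was called in 3 of the 4, not between MDA-MB-231 EV and PBS (-0.25 ± 0.10, adjusted p = 0.115), the value that the library names would give to MCF10A/miR-122 EV. Cyp4f14, the family's main liver gene by level, stood at 360 ± 50.7, 390 ± 56.2, 373 ± 45.8 and 388 ± 57.6 CPM, and Cyp4v3, another fatty acid hydroxylase, at 259 ± 30.4, 237 ± 19.0, 241 ± 15.5 and 267 ± 22.4 CPM, neither called.

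**Figure D3:**
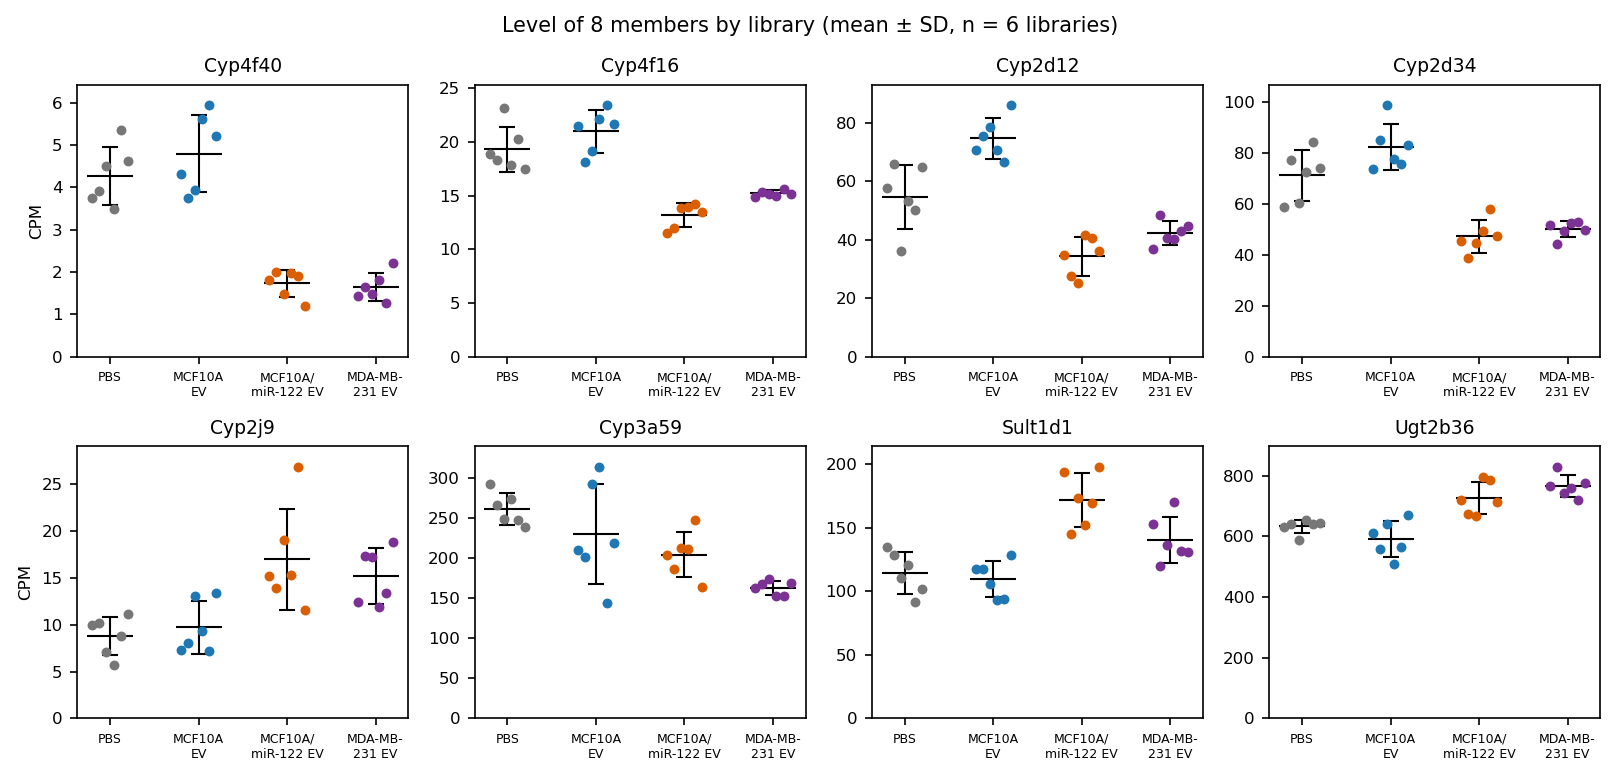
CPM of 8 members in each library (points), with the mean and SD of each group of 6. For Cyp4f40, Cyp4f16 and Cyp2d34 all libraries of the last 2 groups lie below all PBS and MCF10A EV libraries, and for Ugt2b36 and Cyp2j9 they lie above all PBS libraries.

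In phase II, the glutathione S-transferases, which conjugate electrophiles with glutathione, were called at least once in 3 of 16 members, beside 28.3% of all genes. Gsta3, the family's highest member, stood at 1186 ± 219 CPM in PBS, 1258 ± 170 in MCF10A EV, 1380 ± 171 in MCF10A/miR-122 EV and 1396 ± 103 in MDA-MB-231 EV, and was not called. Gstm6 was higher than in PBS (88.8 ± 10.3 CPM) in MCF10A/miR-122 EV (112 ± 18.5, log2 fold change 0.33 ± 0.11, adjusted p = 0.0389) and in MDA-MB-231 EV (121 ± 13.2, 0.45 ± 0.11, adjusted p = 0.0101). The first of these was lost without PBS replicate 1, 2, 4 or 6 or MCF10A/miR-122 EV replicate 1, 2, 4, 5 or 6 (0.28 to 0.33, adjusted p up to 0.104), and in the fit of only the compared groups (adjusted p = 0.0745). Gstm2, Gstm4, Gstm5, Gstm7, Gstk1, Gsto1, Gstp1, Gstp2, Gstt1, Gstt2, Gstt3 and Gsta4 were called nowhere.

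Gsta1 and Gsta2, induced through NRF2 and here nearly 1 signal, were higher in MCF10A/miR-122 EV than in MCF10A EV. Gsta1 lay between 6.55 and 39.1 CPM in PBS (median 11.9), 4.17 and 11.3 in MCF10A EV (6.56), 11.9 and 18.2 in MCF10A/miR-122 EV (14.4) and 8.08 and 19.3 in MDA-MB-231 EV (10.4). The highest value was in PBS replicate 5, and the MCF10A EV and MCF10A/miR-122 EV libraries did not overlap. The log2 fold change was 1.08 ± 0.35 for Gsta1 (adjusted p = 0.0331) and 1.05 ± 0.31 for Gsta2 (adjusted p = 0.0238). Gsta1 lost the call without MCF10A EV replicate 2, 3 or 6 or MCF10A/miR-122 EV replicate 4 (0.97 to 1.02, adjusted p up to 0.0743), and Gsta2 without MCF10A EV replicate 2 or 6 (0.91 to 0.94, adjusted p up to 0.0567). With the library names as identities neither was called (0.79, adjusted p = 0.170, and 0.77, adjusted p = 0.140).

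Among the Sult1 genes, which sulfate phenols, catechols and thyroid hormones, Sult1d1 and Sult1b1 lie side by side on chromosome 5. Sult1d1 lay between 91.4 and 134 CPM in PBS (median 115), 93.3 and 128 in MCF10A EV (112), 145 and 198 in MCF10A/miR-122 EV (171) and 120 and 171 in MDA-MB-231 EV (134). Every MCF10A/miR-122 EV library exceeded every PBS and MCF10A EV library. It was higher there than in PBS by 0.59 ± 0.11 (adjusted p = 0.000521) and than in MCF10A EV by 0.65 ± 0.11 (adjusted p = 0.000166). In MDA-MB-231 EV the difference from MCF10A EV was 0.36 ± 0.11 (adjusted p = 0.0373), a call lost without MCF10A EV replicate 1, 3, 4 or 5 or MDA-MB-231 EV replicate 1, 3 or 4 (0.30 to 0.38, adjusted p up to 0.103), and that from PBS was 0.30 ± 0.11, not called (adjusted p = 0.0694), so that with the library names as identities the call against PBS would be lost.

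Sult1b1 stood at 21.7 ± 3.01 CPM in PBS, 21.5 ± 3.44 in MCF10A EV, 22.7 ± 4.25 in MCF10A/miR-122 EV and 28.5 ± 3.84 in MDA-MB-231 EV. It was higher in MDA-MB-231 EV than in PBS (0.39 ± 0.13, adjusted p = 0.0467) and than in MCF10A EV (0.41 ± 0.13, adjusted p = 0.0499), and each of these calls was lost without 10 of the 12 libraries, all but PBS replicate 4, MCF10A EV replicate 5 and MDA-MB-231 EV replicate 6 (0.32 to 0.45, adjusted p up to 0.117). With the library names as identities the values were 0.07 (adjusted p = 0.764) and 0.08 (0.709). The call against PBS was also lost with RLE scaling (adjusted p = 0.0516), a strict filter (0.0502) and no filter (0.0627), and that against MCF10A EV without a filter (0.0542) and with limma-voom (0.0511). Sult1a1, the main phenol sulfotransferase, was not called at 330 ± 82.9, 322 ± 81.7, 423 ± 73.1 and 370 ± 73.5 CPM, nor were Sult1c2, Sult3a1 and Sult5a1.

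The Sult2a genes sulfate bile acids and hydroxysteroids such as DHEA and lie in a cluster on chromosome 7. Their first 60 coding bases, shown because the 6 rows move as a block, differ at 13 positions (capitals), and Sult2a2 and Sult2a5 have the same 60 bases as Sult2a1.
Sult2a1: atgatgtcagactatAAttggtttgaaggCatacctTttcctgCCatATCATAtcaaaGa
Sult2a3: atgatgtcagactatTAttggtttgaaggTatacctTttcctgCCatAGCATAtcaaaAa
Sult2a4: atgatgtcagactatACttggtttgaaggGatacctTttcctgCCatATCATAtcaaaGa
Sult2a6: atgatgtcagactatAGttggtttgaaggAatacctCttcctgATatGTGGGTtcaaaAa

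These genes varied more between libraries of 1 group than most. Of their words, 14.1% (Sult2a6) to 73.7% (Sult2a2) are also found in another gene, so reads may be shared between the rows. The agreement of the 6 rows is therefore not 6 separate results. Sult2a2 ran from 52.5 to 157 CPM in PBS (median 98.9), 35.5 to 86.3 in MCF10A EV (59.2), 90.4 to 214 in MCF10A/miR-122 EV (129) and 13.7 to 125 in MDA-MB-231 EV (56.3). MDA-MB-231 EV replicate 2 had the lowest level of all 24 libraries for each of the 6 genes, and MCF10A/miR-122 EV replicate 3 the highest for Sult2a1, Sult2a2, Sult2a5 and Sult2a6. Across the 24 libraries the highest and lowest levels differed 14.4-fold (Sult2a1) to 17.5-fold (Sult2a3).

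Sult2a1, Sult2a2, Sult2a5 and Sult2a6 were higher in MCF10A/miR-122 EV than in MCF10A EV, by 1.10 ± 0.34, 1.16 ± 0.34, 1.18 ± 0.35 and 1.23 ± 0.36 on the log2 scale (adjusted p = 0.0275, 0.0199, 0.0219 and 0.0207). For Sult2a2 the 2 groups did not overlap. Each of the 4 calls was lost without MCF10A/miR-122 EV replicate 3 (0.91 to 1.07, adjusted p from 0.0529 to 0.0762), and that of Sult2a1 also without MCF10A EV replicate 1, 2 or 3 (0.91 to 1.08 over these and that library). With the library names taken as the identities their differences in this comparison lay between -0.0907 and -0.0188. Sult2a4 was lower in MDA-MB-231 EV (24.8 ± 14.6 CPM) than in PBS (54.3 ± 19.9), by -1.13 ± 0.36 (adjusted p = 0.0393), a call lost without PBS replicate 1, 2, 4 or 5 or MDA-MB-231 EV replicate 1, 2, 3, 5 or 6 (-1.17 to -0.92, adjusted p up to 0.102), and in the fit of only the compared groups (adjusted p = 0.0670). Between MDA-MB-231 EV and MCF10A/miR-122 EV the 6 genes differed by -1.25 to -0.89 and none was called (adjusted p from 0.182 to 0.449). Sult2a2 was called there without MDA-MB-231 EV replicate 4 (-1.55, adjusted p = 0.0409).

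**Figure D4:**
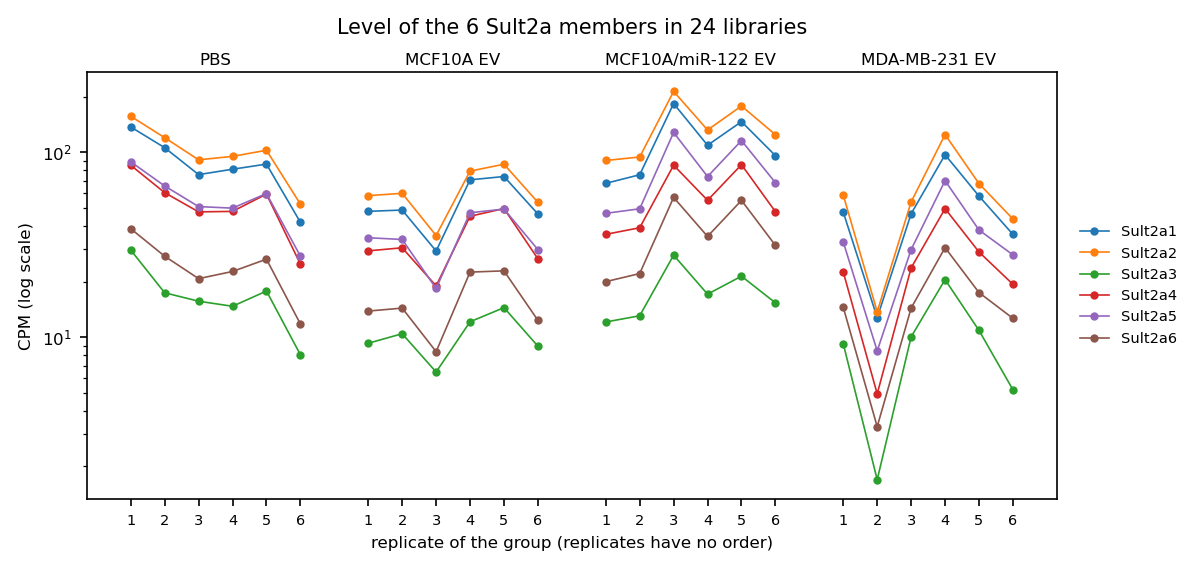
CPM (log axis) of the 6 Sult2a genes in each of the 24 libraries, grouped by treatment; lines join the libraries of a group only to guide the eye. The 6 lines run nearly parallel, from 1.69 CPM (Sult2a3, MDA-MB-231 EV replicate 2) to 214 CPM (Sult2a2, MCF10A/miR-122 EV replicate 3). The rows have sequence in common, so reads may be shared between them.

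Rodent Sult2a promoters are known for an inverted repeat without a spacer that nuclear receptors such as FXR and PXR bind, and promoters of this cluster are shown for that reason. In the RefSeq promoters of build GRCm38.p6 (250 bases before to 50 after each start), those of 4 Sult2a genes held the letters ATGAACT on the strand of the gene. Only these 4 are shown, so how many of them hold the longer letters below says nothing of the share in the cluster. The letters TCATGAACT, searched on both strands and shown in capitals, stood in Sult2a4, Sult2a5 and Sult2a6. They occur in 71 of 32851 mouse promoters (0.216%) and in no other of the 91 promoters of members. The stretches lie at chr7:14123197-14123263 (Sult2a3, minus strand), chr7:13989793-13989838 (Sult2a4, minus), chr7:13623775-13623841 (Sult2a5, plus) and chr7:14255040-14255106 (Sult2a6, minus), each upstream of the start site.
Sult2a3: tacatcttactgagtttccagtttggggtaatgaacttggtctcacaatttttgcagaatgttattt
Sult2a4: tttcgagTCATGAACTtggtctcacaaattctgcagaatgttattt
Sult2a5: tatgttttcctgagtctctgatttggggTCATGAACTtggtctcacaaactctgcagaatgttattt
Sult2a6: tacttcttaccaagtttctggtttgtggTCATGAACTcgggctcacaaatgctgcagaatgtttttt
A match is a description of the letters only, and their part in the Sult2a levels was not tested. Over all member promoters, the box TATAAA stood in 31.9%, against 13.6% of all promoters, CACGTG in 2.20% against 7.15%, and TTANGTAA in 4.40% against 2.32% (both strands, N for any base). TGANNNNGC stood in 46.2% against 41.3%, CCAAT in 49.5% against 37.4%, and TTCNNNGAA in 5.49% against 8.30%. The 91 member promoters belong to 79 genes, many of them close copies, and are not independent.

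The Ugt1a rows, among them Ugt1a1, the bilirubin-conjugating enzyme, and Ugt1a6a and Ugt1a9, which conjugate phenols, were higher in the last 2 groups by a small margin. Ugt1a1 lay between 929 and 1104 CPM in PBS (median 1021), 897 and 1056 in MCF10A EV (981), 1060 and 1297 in MCF10A/miR-122 EV (1223) and 1098 and 1254 in MDA-MB-231 EV (1179). The last 2 groups lay above all MCF10A EV libraries and overlapped with PBS. Against PBS its log2 fold changes were 0.23 ± 0.07 in MCF10A/miR-122 EV (adjusted p = 0.0152) and 0.21 ± 0.07 in MDA-MB-231 EV (adjusted p = 0.0405), and over the 8 rows they ran from 0.20 to 0.26. Against MCF10A EV they ran from 0.23 to 0.29, with 0.29 ± 0.07 for Ugt1a1 in MCF10A/miR-122 EV (adjusted p = 0.004) and 0.26 ± 0.07 in MDA-MB-231 EV (adjusted p = 0.0156).

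The 8 rows count shared reads, so their agreement is no repeat of the result. In MDA-MB-231 EV against PBS, all 8 calls were lost without PBS replicate 3, PBS replicate 6 or MDA-MB-231 EV replicate 6, and some also without PBS replicate 1, 2 or 4 or MDA-MB-231 EV replicate 1, 2, 4 or 5 (0.17 to 0.24, adjusted p up to 0.103). Against MCF10A EV, those of Ugt1a1 and Ugt1a9 held without any 1 library, and the other 6 were lost without MCF10A EV replicate 1 or 2 or MDA-MB-231 EV replicate 5 or 6, and some also without MCF10A EV replicate 3 or 6 or MDA-MB-231 EV replicate 1 or 4 (0.21 to 0.25, adjusted p up to 0.0863). In MCF10A/miR-122 EV the calls held without any 1 library. In the fit of only the compared groups, however, 5 of the 8 calls against PBS were lost there (Ugt1a1, Ugt1a10, Ugt1a2, Ugt1a7c and Ugt1a9, 0.21 to 0.26, adjusted p from 0.0509 to 0.0713), and that of Ugt1a10 against MCF10A EV (adjusted p = 0.0527). In MDA-MB-231 EV against PBS, the calls of the same 5 rows were lost without a filter (adjusted p from 0.0518 to 0.0755), and that of Ugt1a1 in the fit of only the compared groups (0.0643).

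**Figure D5:**
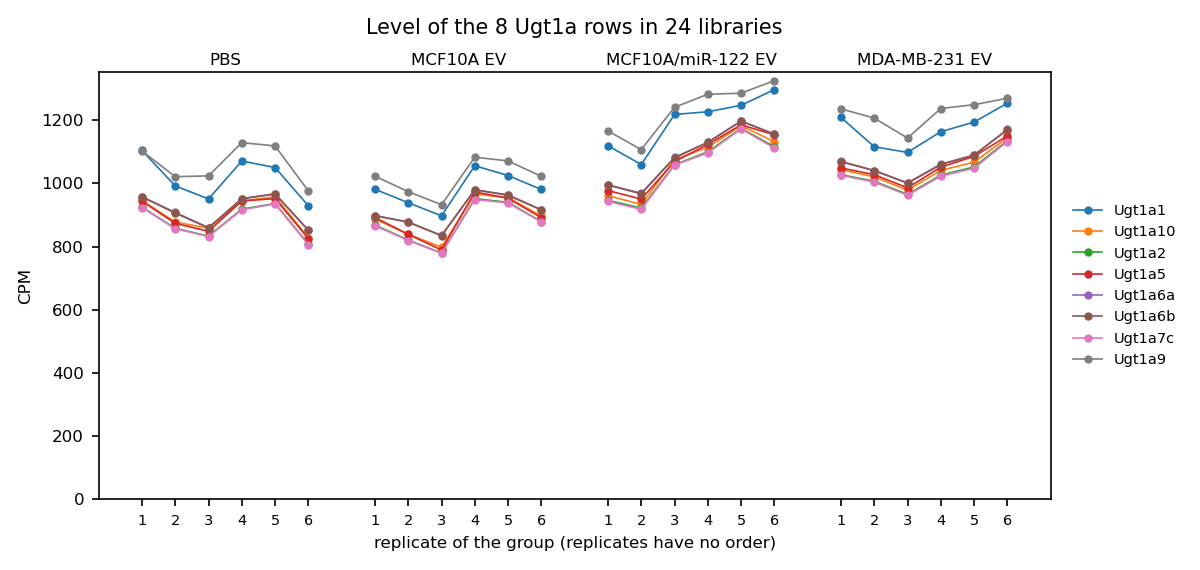
CPM of the 8 Ugt1a rows in each of the 24 libraries, grouped by treatment; lines join the libraries of a group only to guide the eye. The 8 rows follow each other from library to library, and for Ugt1a1 the last 2 groups start at 1060 CPM, above the 1056 of the highest MCF10A EV library.

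Ugt2 genes, which glucuronidate steroids, bile acids and drugs, were called at least once in 7 of 10 members, in both directions, beside 28.3% of all genes. Of the 7, Ugt2a1 and Ugt2a2 count nearly the same reads. Ugt2b36 lay between 589 and 653 CPM in PBS (median 641), 509 and 669 in MCF10A EV (587), 668 and 797 in MCF10A/miR-122 EV (717) and 721 and 829 in MDA-MB-231 EV (764). All libraries of the last groups lay above those of PBS, and MDA-MB-231 EV also above those of MCF10A EV. The log2 fold changes were 0.20 ± 0.07 and 0.28 ± 0.07 against PBS (adjusted p = 0.0432 and 0.00962) and 0.30 ± 0.07 and 0.37 ± 0.07 against MCF10A EV (adjusted p = 0.00413 and 0.00108), MCF10A/miR-122 EV first. The first of these was lost without any PBS library or MCF10A/miR-122 EV replicate 1, 4, 5 or 6 (0.17 to 0.20, adjusted p up to 0.0955), and also without a filter (adjusted p = 0.0648) and in the fit of only the compared groups (0.0881).

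Ugt2a1 and Ugt2a2, which share most of their exons and are best known from the olfactory epithelium, fell together: Ugt2a1 stood at 13.6 ± 0.961 CPM in PBS, 13.6 ± 1.57 in MCF10A EV, 10.7 ± 1.12 in MCF10A/miR-122 EV and 10.8 ± 1.14 in MDA-MB-231 EV, with log2 fold changes between the sets from -0.33 ± 0.09 to -0.36 ± 0.09 (adjusted p from 0.00633 to 0.0167). Ugt2b1 (399 ± 39.7 against 312 ± 47.9 CPM) and Ugt2b5 (689 ± 84.4 against 541 ± 83.7 CPM) were higher in MDA-MB-231 EV than in MCF10A EV, by 0.36 ± 0.09 and 0.35 ± 0.10 (adjusted p = 0.0201 and 0.0327). The first was lost without MCF10A EV replicate 1 or 4 (0.31 to 0.32), the second without MCF10A EV replicate 1, 2, 4 or 5 or MDA-MB-231 EV replicate 2 or 6 (0.30 to 0.33). Ugt2b34 was higher in MCF10A/miR-122 EV (421 ± 31.0 CPM) than in MCF10A EV (357 ± 24.9), by 0.24 ± 0.06 (adjusted p = 0.0133). Ugt2b37 was lower there (90.6 ± 9.59 CPM) than in PBS (112 ± 12.1), by -0.31 ± 0.09 (adjusted p = 0.0263), a call lost without PBS replicate 5 or MCF10A/miR-122 EV replicate 6 (-0.28 to -0.26). With the library names as identities the calls of Ugt2b1 (0.23, adjusted p = 0.0951), Ugt2b5 (0.23, 0.132), Ugt2b34 (0.17, 0.108) and Ugt2b37 (-0.19, 0.189) were lost. In the fit of only the compared groups those of Ugt2b5 (adjusted p = 0.0531) and Ugt2b34 (0.0519) were.

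Ugt3a1, which transfers N-acetylglucosamine, was lower in MCF10A/miR-122 EV (149 ± 7.78 CPM) than in PBS (186 ± 15.1) and MCF10A EV (187 ± 32.7), by -0.32 ± 0.09 and -0.33 ± 0.09 (adjusted p = 0.0132 and 0.0116). In MDA-MB-231 EV it stood at 181 ± 11.7 CPM. Between these last groups, whose libraries did not overlap, it differed by 0.28 ± 0.09 and was not called (adjusted p = 0.263). Both calls were lost with the library names as identities (-0.0366, adjusted p = 0.827, and -0.0469, adjusted p = 0.807), and that against MCF10A EV in the fit of only the compared groups (-0.32, adjusted p = 0.0592). Its neighbour Ugt3a2 was called nowhere.

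Sex-biased members were listed because growth hormone and age also move them. Of 9 members known as female-biased, none was called between MCF10A/miR-122 EV and PBS. Between MDA-MB-231 EV and either PBS or MCF10A EV 1 was lower, the above Cyp3a16, and between MCF10A/miR-122 EV and MCF10A EV 2 were higher, Sult2a1 and Sult2a2. The last 2 form 1 set of near-identical rows. These shares, 0%, 11.1%, 11.1% and 22.2%, stand beside 17.9%, 11.7%, 7.68% and 16.2% of all genes. No difference between the list and all genes is claimed. The median log2 fold change of the 9 against PBS was -0.26 in MCF10A/miR-122 EV and -0.34 in MDA-MB-231 EV, beside 0.00104 and 0.00346 for all genes. Cyp2c40 and Cyp2c69, of this list, were not called, with Cyp2c40 at 1097 ± 336, 1110 ± 329, 864 ± 240 and 1114 ± 256 CPM. Of 4 male-biased members, Cyp2d9 was higher in MDA-MB-231 EV (276 ± 31.4 CPM) than in PBS (180 ± 59.5), by 0.62 ± 0.18 (adjusted p = 0.0259), a call lost without PBS replicate 3, 4 or 5 or MDA-MB-231 EV replicate 2 (0.48 to 0.60, adjusted p up to 0.0666), with the library names as identities (0.31, adjusted p = 0.245) and in the fit of only the compared groups (adjusted p = 0.0509). Gstp1, Gstp2 and Ugt2b38 were not called, so that 1 of the 4 (25%) was called between MDA-MB-231 EV and PBS, beside 11.7% of all genes.

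The genes that supply cofactors to these enzymes were counted as a list of 19 tested. Of them 4 were higher in MCF10A/miR-122 EV than in PBS and 3 than in MCF10A EV, 2 were higher in MDA-MB-231 EV than in either, and none was lower. These shares, 21.1%, 15.8%, 10.5% and 10.5%, are near those of all genes in the same comparisons, 17.9%, 16.2%, 11.7% and 7.68%. Por, the P450 reductase that feeds electrons to all microsomal members, stood at 375 ± 82.7 CPM in PBS, 352 ± 81.8 in MCF10A EV, 644 ± 103 in MCF10A/miR-122 EV and 481 ± 60.9 in MDA-MB-231 EV. It was higher in MCF10A/miR-122 EV than in PBS by 0.78 ± 0.16 (adjusted p = 0.00123), and with the library names as identities that call was lost (0.36, adjusted p = 0.132). Alas1, the rate-limiting enzyme of haem synthesis, was at 207 ± 206, 355 ± 84.5, 565 ± 67.3 and 463 ± 113 CPM and was higher than in PBS by 1.45 ± 0.36 (adjusted p = 0.00698) in MCF10A/miR-122 EV. Ugdh, which makes UDP-glucuronic acid for the Ugt enzymes, was higher than in MCF10A EV by 0.71 ± 0.15 in MCF10A/miR-122 EV and 0.65 ± 0.15 in MDA-MB-231 EV (adjusted p = 0.00179 and 0.00688).

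Of 19 regulators tested, 2 were lower in MCF10A EV than in PBS. Against PBS 2 were higher and 1 lower in MCF10A/miR-122 EV, and 2 were higher and 5 lower in MDA-MB-231 EV. The shares called were 10.5%, 15.8% and 36.8%, beside 1.07%, 17.9% and 11.7% of all genes. Cux2 was lower in MCF10A EV than in PBS (-1.69 ± 0.31, adjusted p = 0.0131). Arnt and Keap1 were lower in MDA-MB-231 EV than in PBS (-0.41 ± 0.09 and -0.22 ± 0.05, adjusted p = 0.00492 and 0.00862). Both calls were lost with the library names as identities (adjusted p = 0.0970 and 0.124). Foxa2 was lower in MDA-MB-231 EV than in MCF10A EV (-1.21 ± 0.19, adjusted p = 0.000165). Nr1i2, which encodes PXR, was higher than in PBS (82.6 ± 9.86 CPM) in MCF10A/miR-122 EV (117 ± 11.2, 0.51 ± 0.11, adjusted p = 0.00203) and in MDA-MB-231 EV (109 ± 13.1, 0.40 ± 0.11, adjusted p = 0.016). Nr1i3, which encodes CAR, was not called in any comparison with PBS. Dbp and Tef encode clock output factors that bind D-boxes and whose RNA moves over the day; the hour of collection is not given in the sources used here. Dbp stood at 68.8 ± 43.2 CPM in PBS, 12.7 ± 9.24 in MCF10A EV, 107 ± 31.3 in MCF10A/miR-122 EV and 93.4 ± 17.1 in MDA-MB-231 EV. It was lower in MCF10A EV than in PBS by -2.43 ± 0.53 (adjusted p = 0.0251), a call lost without PBS replicate 2, 3 or 4 or MCF10A EV replicate 1 or 4 (-2.33 to -2.22, adjusted p up to 0.0759), with limma-voom (adjusted p = 0.100) and in the fit of only the compared groups (0.113). Against MCF10A EV, 4 regulators were higher and 2 lower in MCF10A/miR-122 EV (31.6% called, beside 16.2% of all genes). There, Dbp was higher by 3.07 ± 0.54 (adjusted p = 0.000358) and Tef by 1.52 ± 0.23 (adjusted p = 7.62e-05). In MDA-MB-231 EV 3 were higher and 2 lower (26.3%, beside 7.68%), with Tef higher by 1.29 ± 0.23 (adjusted p = 0.000824). The part of Dbp and Tef in the members' levels was not tested, and 4 of 79 member genes with a promoter in the table, Cyp2c38, Sult1a1, Ugt1a9 and Ugt2b1, held the D-box letters TTANGTAA.

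Of 53 other phase I genes and related enzymes, 6 were higher and 1 lower in MCF10A/miR-122 EV than in PBS, 9 were higher and none lower in MDA-MB-231 EV, and 2 were lower in MCF10A EV. The shares called were 13.2%, 17.0% and 3.77%, beside 17.9%, 11.7% and 1.07% of all genes. Cyp2a5, the coumarin 7-hydroxylase, stood at 911 ± 475 CPM in PBS, 353 ± 98.3 in MCF10A EV, 1953 ± 379 in MCF10A/miR-122 EV and 1017 ± 253 in MDA-MB-231 EV. It was lower in MCF10A EV than in PBS by -1.37 ± 0.26 (adjusted p = 0.0144), a call lost in the fit of only the compared groups (-1.39, adjusted p = 0.0662). It was higher in MCF10A/miR-122 EV than in PBS by 1.10 ± 0.26 (adjusted p = 0.00462), and in MDA-MB-231 EV, the group that the library names would put there, the difference was 0.16 ± 0.26 and not called (adjusted p = 0.735). Fmo5, a flavin-containing monooxygenase, was higher than in PBS by 0.85 ± 0.14 in MCF10A/miR-122 EV (adjusted p = 0.000201) and by 0.48 ± 0.14 in MDA-MB-231 EV (adjusted p = 0.0254), and Cyp1a2, which oxidises caffeine, by 0.58 ± 0.12 and 0.42 ± 0.12 (adjusted p = 0.00144 and 0.0219).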

How the data were processed

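RNA-seq of 24 mouse liver libraries was analysed from 1 table of gene counts. The authors deposited whole-number read counts per gene symbol, without normalization. Reads were made with bcl2fastq 2.18.0.12 and processed with TopHat2 on build mm9, per the submitters' processing notes, from libraries that, per the labels' protocols, were stranded mRNA libraries. How reads were counted, including strand and reads that fit several places, is not given in the sources used here. The 27 rows that share 11 symbols (0.0744% of counts) were left out. Groups follow the treatment label.

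The quasi-likelihood test of edgeR (version 4.0.16, R version 4.3.3) was run on the counts (TMM scaling, filterByExpr, all 24 libraries in 1 fit, two-sided, Benjamini-Hochberg adjustment over 13773 genes, threshold 0.05). All 95 members passed the filter. The common biological coefficient of variation was 16.8%. Levels are CPM on TMM-scaled totals, and standard errors come from the F statistic. The procedure was tested on simulated data.

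Named genes are, per comparison, the 6 called members with the smallest p in each direction, the highest member of each family, the sex-biased members and the 2 context genes with the smallest p per list. Other named members were chosen after their values were seen, and members and lists were chosen with earlier results of these data known. Same-numbered libraries did not regularly deviate together (correlations from -0.431 to 0.374), although some correlated best with their own number. Numbers were not used as pairs in the main fit. Alternatives were RLE scaling, no filter, a strict filter, limma-voom (limma 3.58.1), DESeq2 1.42.0, a replicate block, the library names as identities, only the compared groups, each library left out and, added after seeing the data, near-identical rows counted once.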

Additional observations from a re-analysis of the deposited data

Results flagged for a closer look

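Among 200 groups of 6 libraries (50 named genes in 4 groups), 15 held a library far from the others by Dixon's criterion (7.50%), where chance flags about 1 in 20 groups. In the PBS group, replicate 5 was the high library for 5 genes: Cyp3a44 at 1238 CPM (the others at 805 to 945), Cyp4v3 at 319 CPM (234 to 261), Gstk1 at 133 CPM (100 to 110), Gstp1 at 404 CPM (185 to 260.0) and Gstp2 at 263 CPM (115 to 160.2). Gstp1 and Gstp2 share reads and are not separate cases. The same library had the highest Gsta1 and Gsta2 levels. PBS replicate 3 was high for Cyp2c44 at 38.0 CPM (21.5 to 26.8) and low for Ugt2b36 at 589 CPM (630.3 to 653).

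MCF10A EV replicate 2 was the low library for Cyp3a44 at 674 CPM (877 to 942) and Gstk1 at 89.3 CPM (112 to 122.1). In MCF10A/miR-122 EV, Gsta3 was low in replicate 3 at 1045 CPM (1369 to 1509) and Ugt2a1 was high in replicate 4 at 12.8 CPM (9.63 to 10.7). In MDA-MB-231 EV, replicate 2 was high for Cyp2f2 at 1511 CPM (916 to 990.4), Sult5a1 at 23.7 CPM (8.44 to 12.4) and Ugt2b38 at 207 CPM (165 to 171), and it had the lowest Sult2a levels. Cyp2j5 was low in replicate 6 at 587 CPM (750.2 to 786). No cause of these values was tested.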

How the results depend on the processing

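With each library left out in turn, the number of members called ran from 0 to 2 for MCF10A EV against PBS, 19 to 24 for MCF10A/miR-122 EV against PBS, 15 to 24 for MDA-MB-231 EV against PBS, 25 to 31 for MCF10A/miR-122 EV against MCF10A EV, 15 to 25 for MDA-MB-231 EV against MCF10A EV and 0 to 1 for MDA-MB-231 EV against MCF10A/miR-122 EV. Counts moved by over 1.5 times without PBS replicate 3, PBS replicate 6 or MDA-MB-231 EV replicate 6 (15 each, against PBS), without MCF10A EV replicate 1 or MDA-MB-231 EV replicate 5 (15 and 16, against MCF10A EV), and within the sets without PBS replicate 5 or 6 (1 and 2) and without MCF10A/miR-122 EV replicate 5 or MDA-MB-231 EV replicate 4 (1 each). Of 102 member calls, 65 held without any 1 library. With near-identical rows counted once, MCF10A/miR-122 EV had 15 calls against PBS and 18 against MCF10A EV (the Ugt1a rows became 1, as did Ugt2a1 and Ugt2a2 and, against MCF10A EV, Gsta1 with Gsta2 and Sult2a1 with Sult2a2). DESeq2 called 5 members for MCF10A EV against PBS and the fit with the replicate block 1, Cyp2d40. The other counts with the block were 22, 25, 28, 27 and 0. In each comparison at least 1 library correlated best with its own number, and in none did every library do so. With the block the calls of Cyp3a16 in MDA-MB-231 EV (adjusted p = 0.0717 against PBS and 0.0654 against MCF10A EV), of Ugt2b36 (0.0641) and Cyp2c44 (0.0630) in MCF10A/miR-122 EV against PBS, of Cyp2r1 in MDA-MB-231 EV against MCF10A EV (0.0520) and of Dbp in MCF10A EV against PBS (0.0501) were not made. In the fit of only the compared groups, MCF10A/miR-122 EV against PBS had 7 calls higher and 11 lower, and without a filter MDA-MB-231 EV against PBS had 9 and 9; the cause was not tested. Taking the library names as identities only exchanges the last groups within the same fit. The calls kept were 18 of 23 and 18 of 24 against PBS and 20 of 28 and 20 of 27 against MCF10A EV. They are the calls that both groups share, so this is no separate repeat of the result. The Sult2a differences then turned: Sult2a1 to -0.0907, Sult2a2 to -0.0401, Sult2a5 to -0.0376 and Sult2a6 to -0.0188 (MCF10A/miR-122 EV over MCF10A EV), and Sult2a4 to 0.10 (MDA-MB-231 EV over PBS). Between the exchanged groups themselves the sign of every gene must reverse, so the values there are no test of these genes. They were 1.19 for Sult2a1, 1.20 for Sult2a2, 0.89 for Sult2a3, 1.23 for Sult2a4, 1.22 for Sult2a5 and 1.25 for Sult2a6. At 4.27 CPM in PBS, Cyp4f40 is the member of lowest level among those called in all 4 comparisons between the sets.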
